A study of Homo sapiens with 6 samples.

Results

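The glucose transport and glycolysis genes are 41 genes of glucose uptake, the glycolytic enzymes and their regulators, lactate handling and the entry of pyruvate into mitochondria. They were chosen as a list of symbols, matched by Ensembl gene ID to a table of 58051 gene rows, and each of the 41 matched exactly 1 row. The study measured polyadenylated or ribosomal RNA-depleted transcripts (the labels name polyA RNA, and their protocol describes ribosomal depletion) in A375, an established human melanoma cell line. After a starvation of 2 h, the culture medium received for another 2 h either the cytokine TGFB1 at 10 ng/mL or, in the group called Vehicle, only the carrier, BSA at 1 mg/mL in 4 mM HCl; both groups are otherwise untreated parental cells. There were 3 libraries in each group, and the series calls them technical triplicates, so p-values measure only the spread between these libraries.

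Cells take up glucose through SLC2A (GLUT) transporters, trap it by phosphorylation with hexokinase and split it in glycolysis into pyruvate. Pyruvate is either reduced to lactate by lactate dehydrogenase and exported by SLC16A (MCT) carriers, or oxidised by the pyruvate dehydrogenase complex, which PDK kinases switch off. The committed step, phosphofructokinase, is activated by fructose 2,6-bisphosphate, a signal metabolite that the bifunctional PFKFB enzymes make and break down. Melanoma cells, like many tumour cells, ferment much of their glucose to lactate even with oxygen present.

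Library totals ran from 24713894 to 34895075 counts, and 37 of the 41 members passed the filter on low counts. SLC2A8, HK3, PFKFB1 and FBP1 did not, with 4, 14, 18 and 17 counts summed over the 6 libraries, and they are not discussed further as changes. Levels are given as CPM, counts scaled to a common library size after TMM normalisation (edgeR's correction for composition). The check of the treatment was SMAD7, a direct TGF-beta target: the Vehicle libraries held 7.81, 8.84 and 11.2 CPM of it, and the TGFB1 libraries 63.6, 57.1 and 62.6 CPM. Of 12 melanocyte and melanoma markers, most of the pigment-lineage ones were at or near 0: SOX10 had 0 counts, TYR, TYRP1, MLANA and PMEL were at no more than 1.26 CPM in any library, and DCT was at 3.19 to 6.30 CPM. The counting settings are not known here, so the 0 counts do not show that the cells lack SOX10. MITF, NGFR, S100B, AXL, CSPG4 and VIM were present. VIM was called higher (adjusted p = 0.0406) and MITF lower (0.0355) with TGFB1, and their part in the other results was not tested. Of 16 markers of epithelial, leukocyte, endothelial, muscle and erythroid cells, 4 passed the filter and 0 were called, and their summed level was 34.9 to 40.9 CPM in Vehicle and 36.6 to 39.9 CPM with TGFB1. Vehicle replicate 1 lay farthest out on the first principal component of all genes (-37.1, against -13.4 and -8.25 for the other Vehicle libraries).

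With TGFB1, 6 of the 37 tested members rose and 1 fell (edgeR quasi-likelihood test, p-values adjusted over 16690 genes, threshold 0.05). Across all tested genes 3.31% were called, 2.43% higher and 0.887% lower. The list was chosen with earlier results of these data known. Its tested members also varied less within groups, with a median SD of 4.63% of the mean against 9.44% over all tested genes. Among genes with a mean of at least 50 CPM the gap was smaller, at 3.76% for 21 members against 4.42% for 4387 tested genes. The member count and the share over all genes are therefore not like for like. The median log2 fold change was -0.01 over the tested members and -0.01 over all tested genes. Called genes included 3 of 7 tested glucose transporters (SLC2A1 and SLC2A12 higher, SLC2A3 lower). Also called were 2 of 16 tested glycolytic enzymes (GPI and ALDOA higher) and 2 of 5 tested regulators of flux (PFKFB3 and PFKFB4 higher). The tested hexokinase and phosphofructokinase genes, which also act in the upper part of glycolysis, were not called. None of the 9 lactate and pyruvate members was called, which does not set so short a list apart from the 3.31% of all tested genes. Nor did any of them have an unadjusted p under 0.05. Over all the members 9 did, 7 higher and 2 lower, against 12.3% of all tested genes (7.41% higher and 4.87% lower). In 12 members, 7 higher and 5 lower, every library of 1 group lay above every library of the other, against 16.4% of all tested genes (8.96% higher and 7.49% lower).

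**Figure D1:**
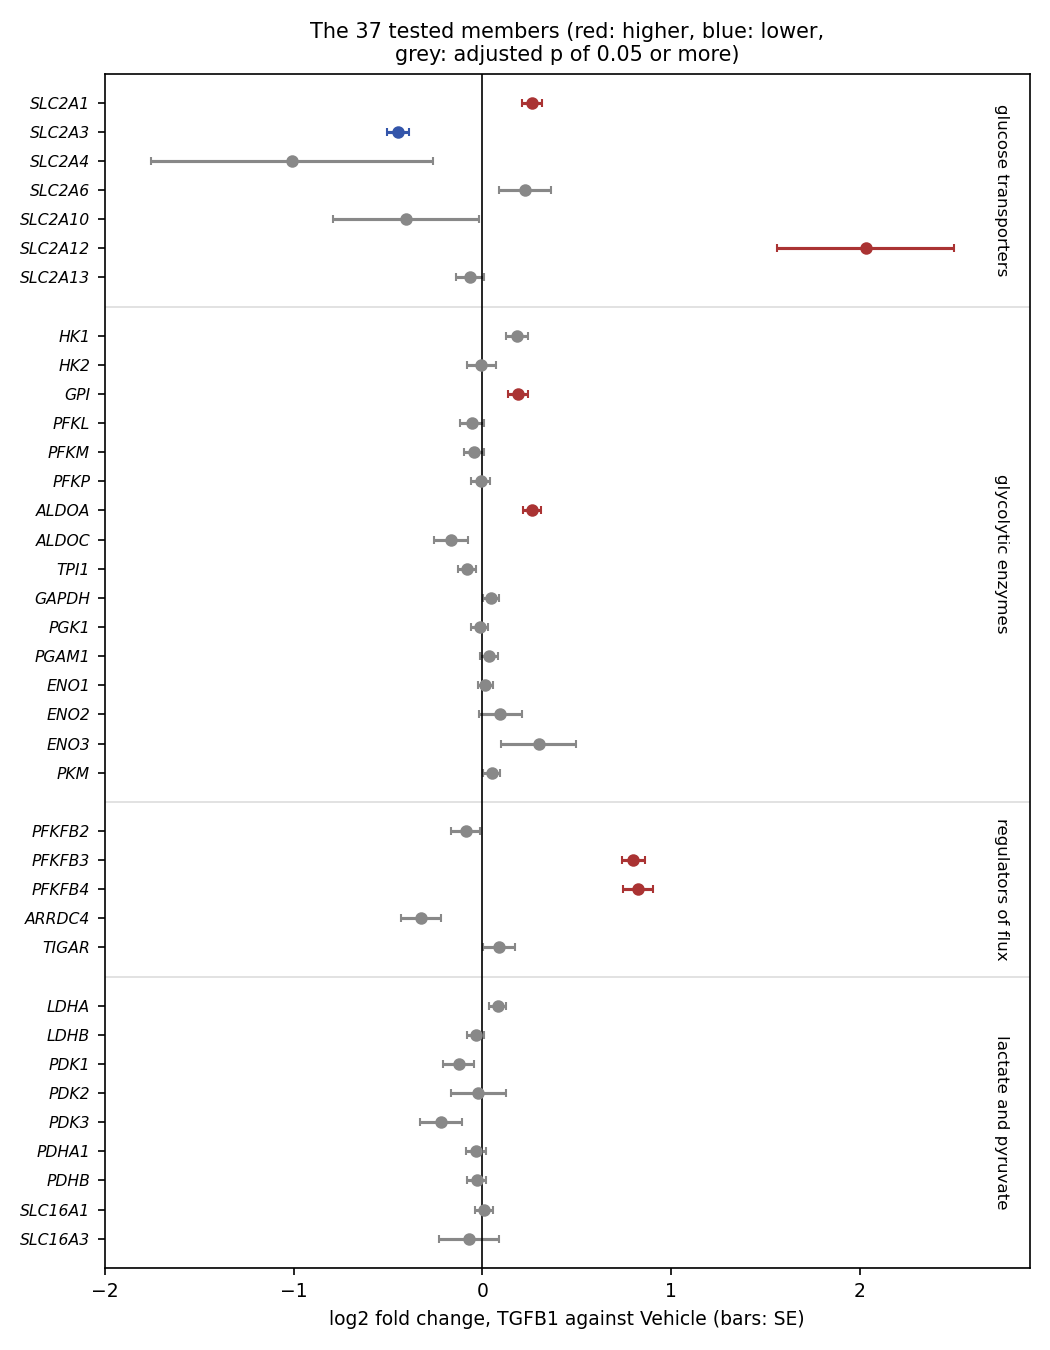
Log2 fold change of TGFB1 against Vehicle for the 37 tested members, grouped by role, with bars for the SE. PFKFB3 and PFKFB4 stand near 0.8, SLC2A3 is the single called gene below 0, SLC2A12 has the widest bar of the called genes, and most enzymes sit close to 0.

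The promoters of PFKFB3 and PFKFB4 are shown because these genes rose the most among members expressed at more than a few CPM. LDHA is shown because its window holds more copies of ACGTG than any other member window while its transcript was not called. ARRDC4 is shown as a member whose level was lower in every TGFB1 library. The same held for SLC2A3, which had no window, and for ALDOC, PDK1 and PDK3, whose windows are not shown. The sequences are from RefSeq (GRCh38.p14), 250 bases upstream of an annotated start, written 5′ to 3′ on the gene's strand. Capitals mark the core of the hypoxia response element, ACGTG, on either strand, and the palindromic E-box, CACGTG, which holds that core on both strands.
PFKFB3 (chr10:6202682-6202931, plus strand, the second of its 2 windows): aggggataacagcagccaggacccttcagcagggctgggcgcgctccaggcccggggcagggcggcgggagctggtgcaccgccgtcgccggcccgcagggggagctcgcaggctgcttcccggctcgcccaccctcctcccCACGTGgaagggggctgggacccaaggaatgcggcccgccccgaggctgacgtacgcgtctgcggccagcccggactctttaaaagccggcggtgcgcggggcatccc
PFKFB4 (chr3:48556804-48557053, minus strand): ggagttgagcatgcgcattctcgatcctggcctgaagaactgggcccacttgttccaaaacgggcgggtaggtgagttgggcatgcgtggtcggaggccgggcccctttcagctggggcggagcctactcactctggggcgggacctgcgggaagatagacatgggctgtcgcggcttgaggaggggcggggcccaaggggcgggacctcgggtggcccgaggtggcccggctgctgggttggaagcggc
LDHA (chr11:18394313-18394562, plus strand, the first of its 2 windows): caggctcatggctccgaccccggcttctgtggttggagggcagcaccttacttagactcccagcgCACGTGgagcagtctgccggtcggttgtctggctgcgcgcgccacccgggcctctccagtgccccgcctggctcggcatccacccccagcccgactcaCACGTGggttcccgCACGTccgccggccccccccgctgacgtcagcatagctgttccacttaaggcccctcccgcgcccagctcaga
ARRDC4 (chr15:97960453-97960702, plus strand): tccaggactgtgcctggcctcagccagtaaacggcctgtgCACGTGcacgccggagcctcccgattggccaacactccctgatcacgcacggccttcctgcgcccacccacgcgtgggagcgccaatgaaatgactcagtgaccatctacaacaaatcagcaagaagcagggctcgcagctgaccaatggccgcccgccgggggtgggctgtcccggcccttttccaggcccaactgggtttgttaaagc

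Windows were found for 37 of the 41 members, 67 in all, since several genes have more than 1 annotated start and some windows overlap. ACGTG on either strand was in 24 of the 67 windows (35.8%), against 18.5% of 35116 windows of all genes, and CACGTG in 10 (14.9%, against 6.34%). Both motifs hold a CG, and the member windows and all windows were not matched for base composition or expression. Both strands of 1 CACGTG count as 2 copies of ACGTG, so the PFKFB3 window shown holds 1 E-box and the ARRDC4 window another, while the LDHA window shown holds 2 E-boxes and 1 further ACGTG. The windows of PFKFB3 and LDHA that are not shown hold neither ACGTG nor CACGTG. The core of the SMAD-binding element, CAGAC on either strand, was in 21 member windows (31.3%, against 38.0% of all windows), among them both windows of PFKFB3. PFKFB4 and SLC2A1 had none of the 3 motifs in their windows. Among the other called members, GPI and ALDOA had an ACGTG and SLC2A12 had none, and all 3 genes had a CAGAC. SLC2A3, the called member that fell, had no window in the table. A match of letters is a description and not a site, and gene counts do not show which start was used.

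Among the glucose transporters, SLC2A1 encodes GLUT1, the basal transporter of most proliferating cells, and lies on chromosome 1 at 42925375 to 42959176 (GENCODE 29 on GRCh38, as for all gene positions here). It stood at 222.1, 210.2 and 238.9 CPM in Vehicle replicates 1, 2 and 3 and at 267.4, 252.3 and 285.0 CPM in TGFB1 replicates 1, 2 and 3. Every TGFB1 library was above every Vehicle library, and the log2 fold change was 0.26 ± 0.05 (SE, adjusted p = 0.00189). The call was lost without Vehicle replicate 2 (adjusted p = 0.0527) or TGFB1 replicate 3 (0.0531).

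SLC2A3 encodes GLUT3, a transporter of high glucose affinity best known from neurons, on chromosome 12 at 7919230 to 7936275. Its level was 80.1, 80.2 and 79.4 CPM in the Vehicle libraries and 56.8, 58.7 and 60.4 CPM with TGFB1. The Vehicle values lay within 1 CPM of each other, and the log2 fold change was -0.45 ± 0.06 (SE, adjusted p = 1.7e-06). It was past the threshold in all 14 alternative settings. SLC2A3 and SLC2A1 thus differed in direction, both beyond the spread between libraries.

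Per kb of exon, SLC2A1 made up 78.3%, 77.4% and 79.7% of the summed SLC2A1 and SLC2A3 level in the Vehicle libraries and 86.0%, 84.9% and 86.0% in the TGFB1 libraries. This share is formed within each library and so does not depend on scaling between libraries. The groups did not overlap, at 78.5 ± 1.17% against 85.6 ± 0.660% (SD, n = 3 each). With the length of the longest principal transcript in place of all exons, it was 74.9% against 83.0%. The 2 genes were called in opposite directions in these same libraries, so the contrast follows from the calls and is not a further result.

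SLC2A12 encodes GLUT12, a transporter mainly described in muscle and fat, on chromosome 6 at 133988697 to 134052636. It had 8, 3 and 20 counts in the Vehicle libraries and 43, 49 and 48 with TGFB1, so its rise by 2.03 ± 0.47 on the log2 scale (SE, adjusted p = 0.00685) rests on few reads. Without Vehicle replicate 2 the log2 fold change was 1.59 and the call was lost (0.0587), without Vehicle replicate 3 it was 2.76, and the gene fell out of the test when at least 50 counts in 3 libraries were required. Of its exonic bases, 38.9% lie under exons of TBPL1 on the other strand, and whether reads were counted by strand is not known here. TBPL1 itself had a mean of 31.8 ± 3.45 CPM in the Vehicle libraries against 35.7 ± 2.35 CPM in the TGFB1 libraries (SD, n = 3 each, log2 fold change 0.17, adjusted p = 0.414), and its part in the SLC2A12 counts was not tested.

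The remaining tested transporters were not called. SLC2A13, a carrier of myo-inositol, averaged 36.0 ± 1.13 CPM in Vehicle against 34.5 ± 1.41 CPM with TGFB1 (SD, n = 3 each). SLC2A6, a transporter of intracellular membranes, was at 7.27 ± 0.218 and 8.52 ± 1.28 CPM. SLC2A10 was near 1 CPM, and SLC2A4, the insulin-regulated transporter GLUT4 of muscle and fat, had 45 counts in all 6 libraries together.

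**Figure D2:**
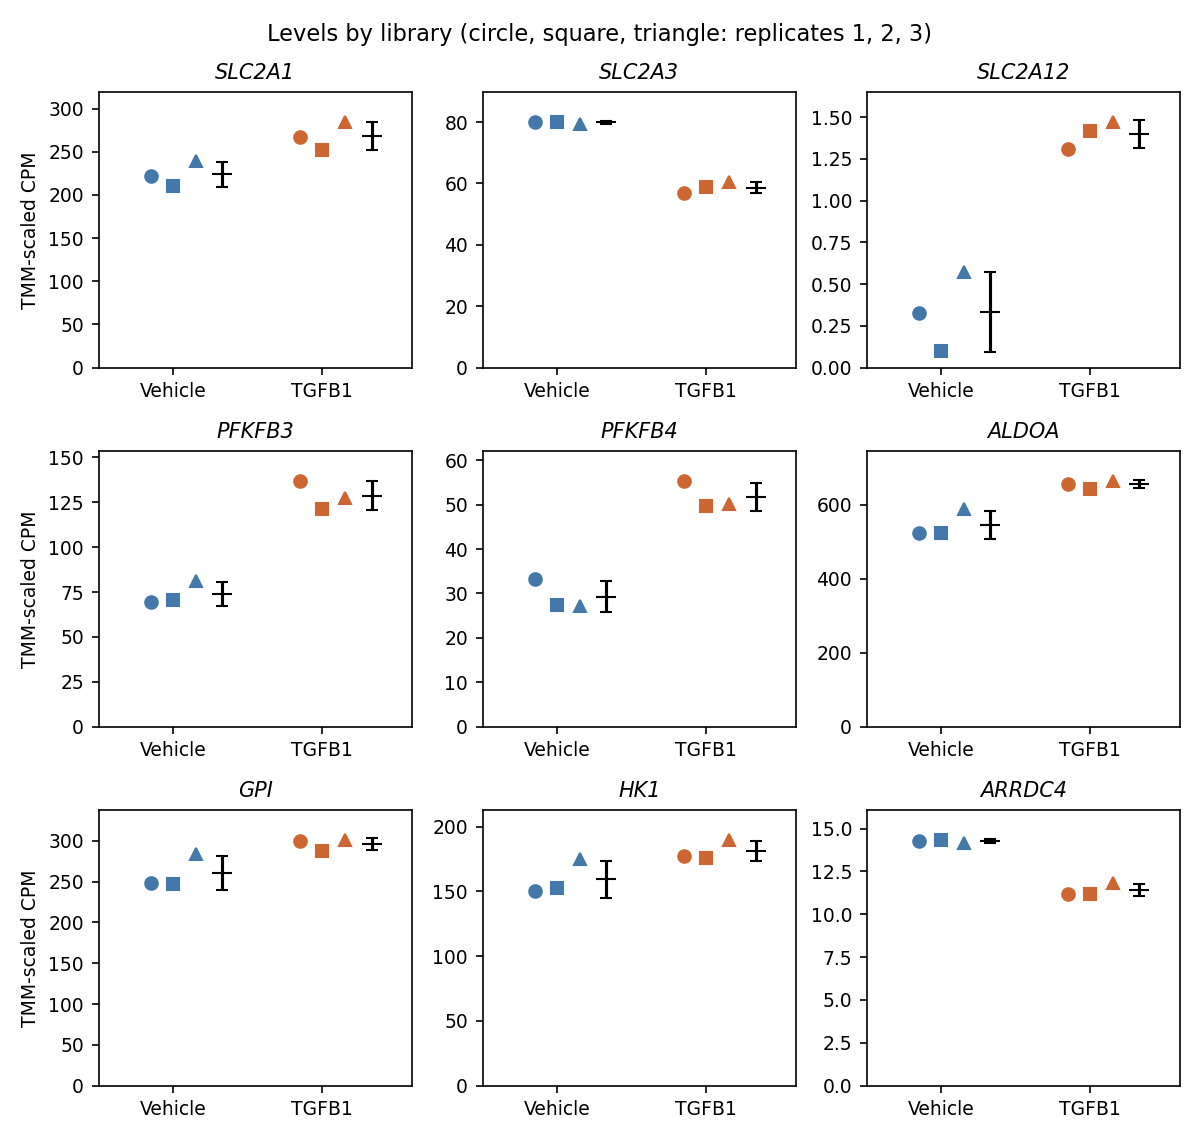
TMM-scaled CPM from 0 in each of the 6 libraries for the 7 called members and for HK1 and ARRDC4, with the mean and SD beside the points. All 9 genes have groups that do not overlap, and Vehicle replicate 3 is the Vehicle library nearest to the TGFB1 libraries for each gene shown except PFKFB4, the falling SLC2A3 and ARRDC4 included.

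Among the regulators of flux, PFKFB3 encodes the isozyme with the strongest bias towards making fructose 2,6-bisphosphate, on chromosome 10 at 6144934 to 6254644. It rose from 69.7, 70.4 and 81.4 CPM in Vehicle to 137.1, 121.3 and 127.6 CPM with TGFB1. The lowest TGFB1 library was well above the highest Vehicle library, and the log2 fold change was 0.80 ± 0.06 (SE, adjusted p = 2.07e-11), a fitted rise of 74.1%. PFKFB4, a second isozyme of the family, on chromosome 3 at 48517684 to 48562015, rose from 33.2, 27.5 and 27.2 CPM to 55.4, 49.7 and 50.2 CPM. Its groups were as far apart, by 0.83 ± 0.08 on the log2 scale (SE, adjusted p = 2.39e-09). Both genes were past the threshold in all 14 alternative settings, PFKFB3 with log2 fold changes from 0.75 to 0.88 and PFKFB4 from 0.77 to 0.92.

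PFKFB2, the isozyme best known from heart, was not called. It was at 31.9, 30.1 and 34.1 CPM in Vehicle and 29.7, 30.4 and 30.3 CPM with TGFB1, with overlapping groups (log2 fold change -0.09 ± 0.08, SE, adjusted p = 0.736). Per kb of exon, PFKFB2 went from 15.7 ± 0.102% of the family's summed level in Vehicle to 9.10 ± 0.605% with TGFB1 (SD, n = 3 each). PFKFB3 was the largest of the family in both groups, at 60.2 ± 2.89% and 64.7 ± 0.589%, and PFKFB4 came next, at 24.0 ± 3.13% and 26.1 ± 0.406%. The order was the same with the longest principal transcript as the length.

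TIGAR encodes an enzyme that breaks down fructose 2,6-bisphosphate and so opposes the PFKFB kinases. It was not called, with 27.6 ± 2.30 CPM in Vehicle against 29.4 ± 1.03 CPM with TGFB1 (SD, n = 3 each, adjusted p = 0.762). ARRDC4, an arrestin-domain protein related to TXNIP that lowers glucose uptake, stood at 14.3, 14.4 and 14.2 CPM in Vehicle and 11.2, 11.2 and 11.8 CPM with TGFB1. Every TGFB1 library was below every Vehicle library, but the gene did not pass (log2 fold change -0.32 ± 0.11, SE, adjusted p = 0.113) in the edgeR test, nor in any of 14 alternative settings (adjusted p from 0.0889 to 0.344).

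**Figure D3:**
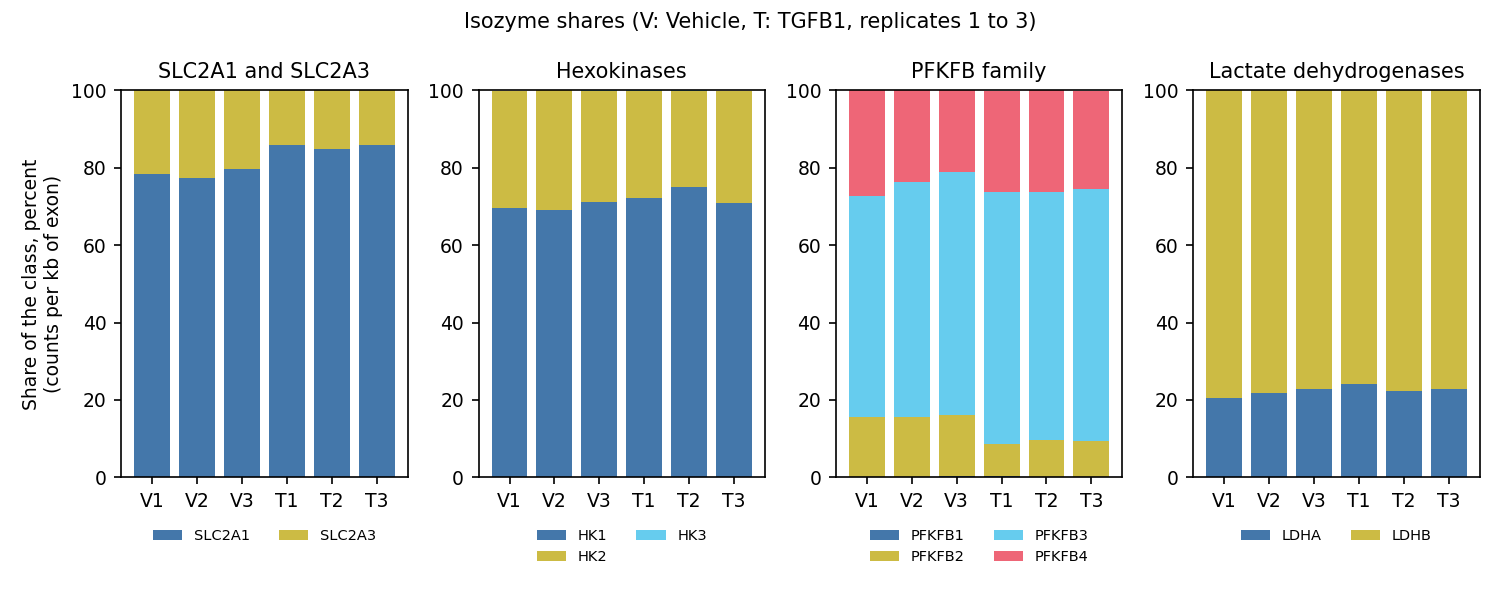
Share of each isozyme in the summed level of its class per kb of exon, in percent, for each of the 6 libraries. The SLC2A1 share is higher and the PFKFB2 share lower in the 3 TGFB1 libraries than in the 3 Vehicle libraries, whereas the hexokinase and lactate dehydrogenase shares overlap between the groups.

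Among the glycolytic enzymes, hexokinase, which acts first, was represented by HK1 and HK2, and HK1 was the larger per kb of exon (70.0 ± 1.16% in Vehicle and 72.8 ± 2.04% with TGFB1, SD, n = 3 each). HK1 was at 150.1, 152.4 and 175.3 CPM in Vehicle and 177.3, 175.9 and 190.1 CPM with TGFB1. The groups did not overlap but nearly touched, and HK1 missed the threshold (log2 fold change 0.18 ± 0.06, SE, adjusted p = 0.0747). Without Vehicle replicate 3 its adjusted p was 0.00104, and without TGFB1 replicate 3 it was 0.427. HK2, the isozyme that many tumours induce, ranged from 62.8 to 67.9 CPM over the Vehicle libraries and from 56.4 to 74.6 CPM over the TGFB1 libraries, with overlapping groups and a fold change whose sign varied with the setting.

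GPI, which turns glucose 6-phosphate into fructose 6-phosphate, lies on chromosome 19 at 34359480 to 34402413. It stood at 248.9, 247.5 and 284.1 CPM in Vehicle and 299.4, 287.8 and 301.6 CPM with TGFB1. The highest Vehicle library, replicate 3, lay just under the lowest TGFB1 library, and the log2 fold change was 0.19 ± 0.05 (SE, adjusted p = 0.0397). GPI missed the threshold under total-count scaling (0.0631) and upper-quartile scaling (0.0649). Leaving out a library ended the call for Vehicle replicates 1 (0.177) and 2 (0.292) and for TGFB1 replicates 1 (0.203) and 3 (0.206). Set against GAPDH within each library, the ratio of GPI to GAPDH counts was 0.0780, 0.0802 and 0.0917 in Vehicle and 0.0907, 0.0883 and 0.0966 with TGFB1, so on that scale the groups overlapped.

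ALDOA, the main aldolase, which splits fructose 1,6-bisphosphate, lies on chromosome 16 at 30064164 to 30070457. Its level was 523.8, 522.6 and 589.5 CPM in Vehicle and 656.3, 643.1 and 665.2 CPM with TGFB1. The groups were apart, by 0.26 ± 0.05 on the log2 scale (SE, adjusted p = 0.000464), and the gene was past the threshold in all 14 alternative settings. Of its exonic bases, 42.3% are shared with AC093512.2 on the same strand and 13.3% lie under AC093512.1 on the other, and the part of these overlaps in its counts was not tested. Its brain-type paralog ALDOC was at 21.6, 21.3 and 22.9 CPM in Vehicle and 19.8, 20.3 and 18.5 CPM with TGFB1. The ALDOC groups did not overlap, but the gene did not pass (log2 fold change -0.17 ± 0.09, SE, adjusted p = 0.488). Within each library, ALDOC took 5.11 ± 0.151% of the aldolase level per kb of exon in Vehicle and 3.84 ± 0.238% with TGFB1 (SD, n = 3 each).

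The 3 phosphofructokinase genes, whose enzyme is the target of the PFKFB product, were not called. PFKP, the platelet-type isozyme and the largest of them per kb of exon (67.7% in Vehicle), was at 224.3, 219.1 and 235.5 CPM in Vehicle and 222.0, 218.4 and 234.8 CPM with TGFB1. PFKM, the muscle type, was at 112.3 ± 5.16 and 109.0 ± 0.860 CPM, and PFKL, the liver type, at 62.6 ± 5.30 and 60.2 ± 0.913 CPM (SD, n = 3 each). Their log2 fold changes ran from -0.05 to -0.01, with SEs of 0.05 to 0.07 and adjusted p-values from 0.826 to 0.979.

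Below aldolase, no enzyme was called. TPI1, which interconverts the triose phosphates, was at 1086, 1069 and 974.2 CPM in Vehicle and 933.8, 1030 and 992.4 CPM with TGFB1, with overlapping groups. GAPDH, the oxidising enzyme that is often used as a reference gene, was at 3190, 3085 and 3097 CPM in Vehicle and 3302, 3260 and 3122 CPM with TGFB1. The GAPDH groups overlapped (log2 fold change 0.05 ± 0.04, SE, adjusted p = 0.738).

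PGK1, the first enzyme of the pathway to make ATP, was at 1008, 1003 and 943.1 CPM in Vehicle and 961.0, 1007 and 956.5 CPM with TGFB1. PGAM1, the phosphoglycerate mutase, was at 532.0, 502.9 and 541.2 CPM in Vehicle and 556.2, 539.2 and 520.7 CPM with TGFB1. ENO1, the main enolase, was at 3717, 3609 and 3568 CPM in Vehicle and 3694, 3717 and 3606 CPM with TGFB1. All 3 genes had overlapping groups and log2 fold changes between -0.01 and 0.04. The neuronal enolase ENO2 (10.9 to 13.1 CPM over the Vehicle libraries) and the muscle enolase ENO3 (2.62 to 3.68 CPM) together made up under 1% of the enolase level per kb of exon and were not called.

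PKM, the pyruvate kinase that makes the pathway's second ATP, was at 1785, 1799 and 1843 CPM in Vehicle and 1951, 1827 and 1838 CPM with TGFB1 (log2 fold change 0.05 ± 0.04, SE, adjusted p = 0.734). Gene counts do not separate its PKM1 and PKM2 splice forms. Several of these genes have processed pseudogenes that could take reads. The counts on pseudogenes named after a member came to at most 1.04% of the parent's counts (SLC2A3), and 0.154% for GAPDH with 62 of them. How reads that fit a parent and a pseudogene alike were counted is not known, so these counts do not show whether parents lost reads. Overlapping genes could take or give reads as well: LDHB and TIGAR share 33.4% and 42.6% of their exonic bases with a gene on the same strand, and 38.6% of PDK2 and 21.3% of PDHA1 lie under a gene on the other strand.

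**Figure D4:**
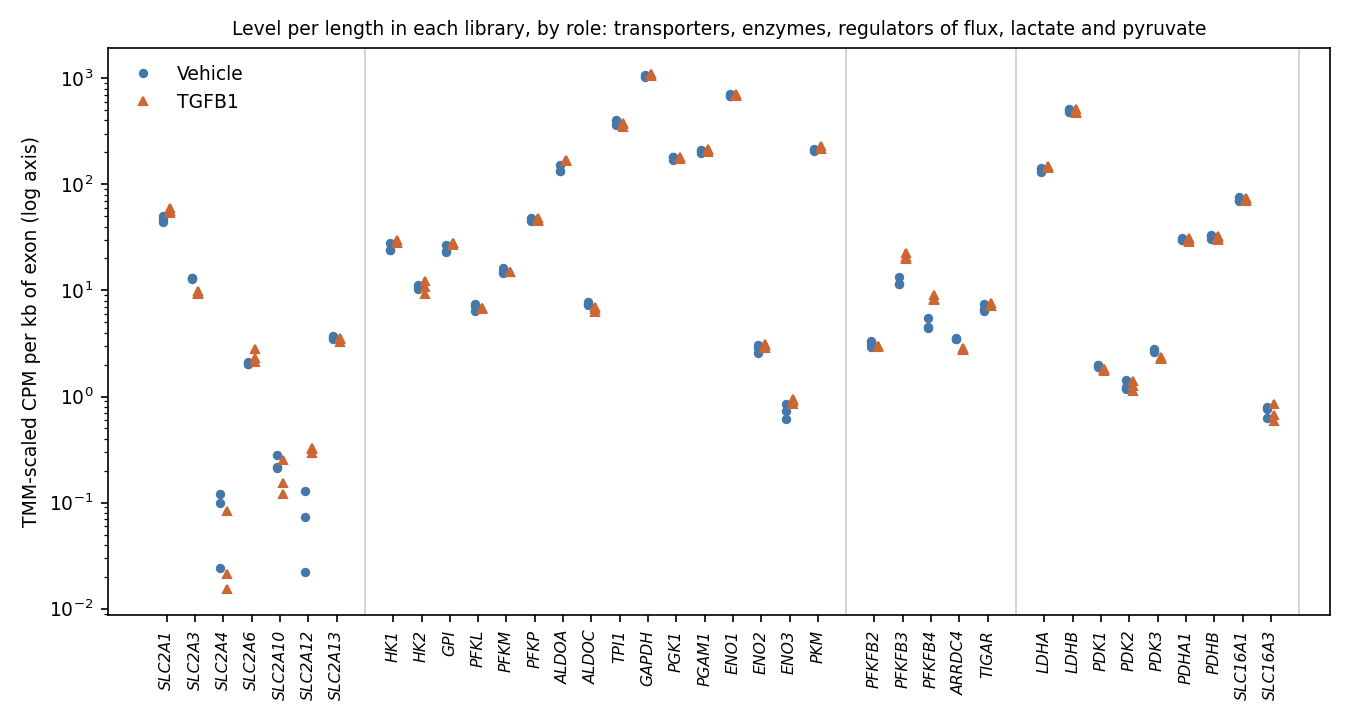
TMM-scaled CPM per kb of exon on a log axis, for each library and each of the 37 tested members, in order of role. GAPDH (1066 on average) and ENO1 (692.2) are the highest, and the gaps between genes are far larger than those between Vehicle and TGFB1.

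Per kb of exon, the highest levels averaged over the 6 libraries were those of GAPDH (1066 CPM per kb), ENO1 (692.2), LDHB (492.9), TPI1 (375.6), PKM (214.7) and PGAM1 (207.2). The called members lay lower, from ALDOA (153.2) and SLC2A1 (52.1) through GPI (26.0), PFKFB3 (16.6), SLC2A3 (11.2) and PFKFB4 (6.64) to SLC2A12 (0.194). All annotated exons of a gene count towards its length here, so genes with many alternative exons are placed lower than by a single transcript. Summed over the 41 members the level was 16183 ± 104.3 CPM in Vehicle and 16598 ± 197.6 CPM with TGFB1 (SD, n = 3 each). The sum of the 7 called genes went from 1213 ± 77.3 to 1460 ± 40.4 CPM, and that of the 30 tested and not called from 14970 ± 147.3 to 15138 ± 229.0 CPM. The genes were split by the test on these same libraries, so the contrast follows from the calls and is not a further result.

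The Vehicle libraries were not alike. In 5 of the 6 called higher members, Vehicle replicate 3 was the highest of the 3 Vehicle libraries, and in the other, PFKFB4, it was replicate 1. For SLC2A3, which fell, Vehicle replicate 3 was the lowest of them, by less than 1 CPM. Without Vehicle replicate 3, 7 members were higher, HK1 being added, and 1 was lower. Without Vehicle replicate 2, 3 were higher (PFKFB3, PFKFB4 and ALDOA) and 1 was lower. Why the Vehicle libraries differ was not tested.

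None of the lactate and pyruvate genes passed the test. LDHB, the subunit of lactate dehydrogenase best known from heart, was the larger of the pair, with 78.3 ± 1.21% of the level per kb of exon in Vehicle and 76.9 ± 0.851% with TGFB1 (SD, n = 3 each). It was at 1504, 1514 and 1447 CPM in Vehicle and 1410, 1518 and 1428 CPM with TGFB1. LDHA, the subunit that favours lactate production, was at 804.3, 872.2 and 892.0 CPM in Vehicle and 927.2, 910.1 and 879.7 CPM with TGFB1. The LDHA groups overlapped and the gene did not pass (log2 fold change 0.08 ± 0.05, SE, adjusted p = 0.522).

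Of the monocarboxylate carriers that move lactate across the cell membrane, SLC16A1 (MCT1) had the highest transcript level per kb of exon (72.3 CPM per kb, against 9.60 for SLC16A7 and 0.717 for SLC16A3), and stood at 370.1, 399.3 and 379.6 CPM in Vehicle and 372.8, 398.7 and 384.4 CPM with TGFB1, with a log2 fold change near 0 (0.01 ± 0.05, SE, adjusted p = 0.976). SLC16A3 (MCT4), the carrier of strongly glycolytic cells, was at 6.62 ± 0.822 and 6.28 ± 1.21 CPM (SD, n = 3 each) and made up 1.01% of the summed SLC16A1 and SLC16A3 level per kb of exon in Vehicle. SLC16A7 (MCT2), a carrier outside the 41 genes named here after its values were seen, lay between them, at 149.8, 139.3 and 121.2 CPM in Vehicle and 127.6, 122.6 and 126.9 CPM with TGFB1 (adjusted p = 0.424). The pyruvate dehydrogenase subunit genes also had overlapping groups. PDHB was at 152.2, 155.8 and 143.8 CPM in Vehicle and 148.2, 152.1 and 142.0 CPM with TGFB1, and PDHA1 at 139.9, 135.6 and 134.3 CPM against 127.3, 133.2 and 139.3 CPM.

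Of the kinases that switch off pyruvate dehydrogenase, 3 are members and none passed. PDK1 was at 29.5, 29.6 and 28.0 CPM in Vehicle and 25.6, 27.1 and 27.0 CPM with TGFB1 (log2 fold change -0.13 ± 0.08, SE, adjusted p = 0.596). PDK3 was at 13.9, 13.0 and 13.3 CPM in Vehicle and 11.5, 11.7 and 11.2 CPM with TGFB1 (log2 fold change -0.22 ± 0.11, SE, adjusted p = 0.417). In both genes the groups did not overlap. PDK2 averaged 7.03 ± 0.728 CPM in Vehicle against 6.93 ± 0.722 CPM with TGFB1 (SD, n = 3 each), with overlapping groups.

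Lists of neighbouring genes were read in the same fit. Over all 5 lists 62 genes were tested and 6 called (9.68%), against 3.31% of all tested genes. The lists were chosen with earlier results of these data known, so these shares are not like for like. Of 38 further genes of glycolysis, glucose and lactate transport and pyruvate entry, 23 were tested, 0 were higher and 3 were lower. TXNIP, which lowers glucose uptake and belongs to the same arrestin family as ARRDC4, fell from 150.8, 133.5 and 152.6 CPM to 80.6, 85.4 and 77.9 CPM (log2 fold change -0.84 ± 0.06, SE, adjusted p = 7.14e-13). PDK4, the remaining kinase of pyruvate dehydrogenase, fell from 22.1, 20.1 and 19.3 CPM to 15.5, 13.4 and 13.8 CPM (log2 fold change -0.52 ± 0.10, SE, adjusted p = 0.000773). PDP1, the phosphatase that switches the same enzyme back on, fell as well, from 184.5, 179.3 and 168.6 CPM to 128.4, 134.3 and 139.1 CPM (log2 fold change -0.41 ± 0.05, SE, adjusted p = 1.41e-06). In all 3 genes each TGFB1 library was below each Vehicle library, and all 3 were past the threshold in 14 of 14 alternative settings.

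Of 8 pentose phosphate genes 7 were tested and 0 called, and of 16 glycogen genes 13 were tested and 0 called (edgeR). At an unadjusted p under 0.05 each of these lists had 1 gene, PGD and GYS1, both higher. Across all tested genes 3.31% were called and 12.3% had an unadjusted p under 0.05. The counts of both lists do not set lists this short apart from those shares. TKT, the transketolase, was the most abundant of the first list at 620.0 ± 32.4 and 605.2 ± 9.12 CPM, followed by TALDO1 at 128.2 ± 3.16 and 121.8 ± 5.96 CPM. PYGB, the brain-type glycogen phosphorylase, led the second at 1224 ± 38.4 and 1210 ± 28.2 CPM (SD, n = 3 each), followed by the phosphoglucomutase PGM2 at 181.3 ± 3.14 and 179.0 ± 11.69 CPM.

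Of 6 gluconeogenesis genes 4 were tested and 1 was higher. G6PC3, a glucose 6-phosphatase found in most tissues, was at 28.3, 27.1 and 35.1 CPM in Vehicle and 41.6, 35.7 and 36.3 CPM with TGFB1 (log2 fold change 0.32 ± 0.09, SE, adjusted p = 0.0346). That call held in 8 of 14 alternative settings, but not under total-count scaling (0.0816) or limma-voom (0.0536). It also ended on leaving out Vehicle replicate 1 (0.121) or 2 (0.296), or TGFB1 replicate 1 (0.328) or 3 (0.0589).

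Of 16 regulators of the pathway 15 were tested, 1 was higher and 1 was lower. MLXIP, which encodes MondoA, a glucose-sensing transcription factor known to drive TXNIP and ARRDC4, was at 11.9, 11.1 and 13.0 CPM in Vehicle and 16.8, 15.2 and 16.5 CPM with TGFB1 (log2 fold change 0.43 ± 0.11, SE, adjusted p = 0.0143). It lost its call without Vehicle replicate 2 (0.12) and without TGFB1 replicate 1 (0.11) or 3 (0.0841). DDIT4, an inhibitor of the growth kinase mTORC1, fell from 110.7, 113.1 and 105.6 CPM to 78.5, 78.0 and 78.2 CPM (log2 fold change -0.49 ± 0.05, SE, adjusted p = 6.86e-08), and 41.2% of its exonic bases lie under exons of the other strand. HIF1A, the hypoxia factor known for driving many glycolysis genes, and MYC were not called (log2 fold changes -0.05 and -0.16, adjusted p = 0.804 and 0.77). EGLN3, itself a hypoxia target, was not called either (0.09 ± 0.45, SE, adjusted p = 0.974). EGLN3 was near the floor, at 0.327, 0.657 and 1.47 CPM in Vehicle and 0.974, 0.867 and 0.829 CPM with TGFB1. With so wide an SE, its value cannot show whether it changed. HIF1A protein was not measured.

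**Figure D5:**
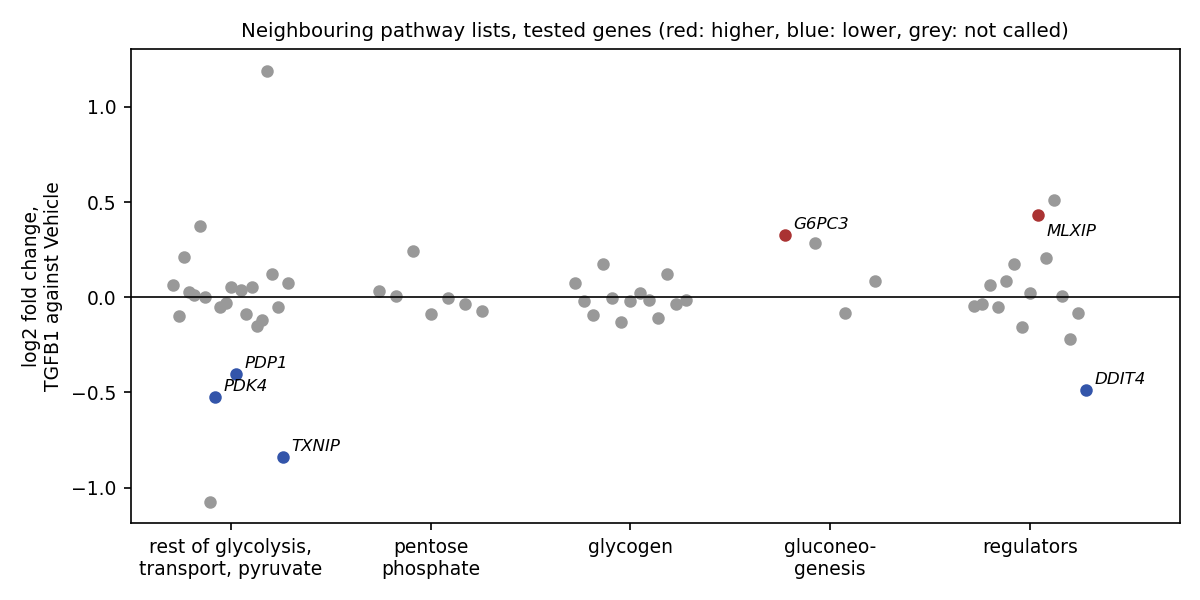
Log2 fold change of TGFB1 against Vehicle for the 62 tested genes of 5 neighbouring lists, with the called genes named. TXNIP, PDK4, PDP1 and DDIT4 are lower, and G6PC3 and MLXIP are higher. The pentose phosphate and glycogen lists hold no called gene, which does not set such short lists apart from the 3.31% of all tested genes.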

How the data were processed

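The deposited table holds raw counts of reads per Ensembl gene in 3 Vehicle and 3 TGFB1 libraries. Per the submitters' processing notes, the authors used cutadapt, TopHat2 2.1 and HTSeq on GRCh38. The sources used here do not give the annotation release, the counting mode or the strand setting. The filter filterByExpr of edgeR, with a minimum count of 10 and a minimum total of 15, left 16690 genes, which were scaled by TMM and tested with edgeR's quasi-likelihood F-test (edgeR 4.0.16, R 4.3.3, robust, group as the sole term), with Benjamini-Hochberg adjustment over all of them and a threshold of 0.05. Each SE was obtained by dividing the size of the log2 fold change by the square root of F. Means ± SD are of TMM-scaled CPM over 3 libraries.

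The members and lists were chosen with earlier results of these data known, and no list was tested. Named genes are the members, and from each further list those past the threshold or the 2 most abundant. HIF1A, MYC, EGLN1, EGLN3, PGD, GYS1 and SLC16A7 were added after their values were seen. The motifs were chosen after the results were seen. Within groups, chi-square per gene between 2 libraries was 5.01 to 24.9, so no library repeats another. Positions and exon lengths are from GENCODE 29, and the authors may have counted on another release. Alternatives were other scalings (DESeq2's size factors, total counts, upper quartile), no low-count filter, at least 50 counts in 3 libraries, a replicate block, DESeq2 1.42.0, limma-voom (limma 3.58.1) and leaving out each library; another transcript length was added after seeing the data.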

Additional observations from a re-analysis of the deposited data

How the results depend on the processing

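PFKFB3, PFKFB4, ALDOA, SLC2A3, TXNIP, PDK4, PDP1 and DDIT4 were past the threshold in the same direction in all 14 alternatives. Leaving out 1 library, the count of higher members ran from 3 (without Vehicle replicate 2) to 7 (without Vehicle replicate 3), and that of lower members stayed at 1. Over all genes the higher count ran from 264 to 683 and the lower from 97 to 240, and higher genes of the neighbouring lists from 0 to 5, against 2 in the full fit. With total-count scaling and with limma-voom that last count was 1. The cause was not tested. Near-0 fold changes of uncalled members changed sign: HK2 with total counts (0.0032) and with no low-count filter (0.0065), PFKP with no low-count filter (0.0034) and SLC16A1 with upper-quartile scaling (-0.0053). Leaving out 1 library, log2 fold changes ran from -0.1097 to 0.0948 for HK2, -0.0393 to 0.022 for PFKP, -0.044 to 0.0047 for PGK1, -0.0992 to 0.0669 for PDK2, -0.0139 to 0.0412 for SLC16A1 and -0.2334 to 0.0446 for SLC16A3. HK1 passed with no low-count filter (0.042). With a replicate block, 448 genes were higher and 153 lower over all genes, and 7 members were higher and 1 lower, HK1 (adjusted p = 0.0211) being added. Libraries share only a replicate number: the correlations of same-numbered libraries were -0.030, 0.042 and 0.008, and only the libraries of replicate 2 correlated best with their own number. SLC2A12 and the members that failed the filter are limited by depth, since few reads stand behind them.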
